A study of Mus musculus with 6 samples.

Results

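A list of 10 genes of canonical Wnt signalling, named by symbol out of 55450 annotated mouse genes, was followed through the CAGE libraries of a pluripotent and a glial cell line. The list holds the TCF/LEF transcription factors (Tcf7, Tcf7l1, Tcf7l2 and Lef1), the co-activator they bind (Ctnnb1, encoding β-catenin), the scaffolds of its destruction complex (Apc and Axin2), the Wnt inhibitor Apcdd1 and the R-spondin receptors Lgr4 and Lgr5. In canonical Wnt signalling, a Wnt ligand bound to a Frizzled receptor stops the destruction complex from marking β-catenin for degradation, and β-catenin then enters the nucleus and binds TCF/LEF proteins at their target genes. Without β-catenin, the same proteins hold target genes down together with co-repressors, and the paralogs differ in this: Tcf7l1 is known mainly as a repressor in embryonic stem cells, and Tcf7 and Lef1 mainly as activators. In the oligodendrocyte lineage Tcf7l2 is known as the paralog needed for differentiation, and Axin2 as a target gene that reports Wnt activity.

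The study made 3 CAGE libraries from nuclear RNA of R08, a male mouse embryonic stem cell (mESC) line. It made 3 more from nuclear RNA of Oli-neu, a line derived from mouse oligodendrocyte progenitor cells (mOPC). R08 was grown without feeder cells in medium with 1000 U/ml LIF and 15% serum, and Oli-neu on poly-L-lysine with 10 ng/ml bFGF, 1 ng/ml PDGF-BB, 340 ng/ml T3 and 400 ng/ml L-thyroxine. No Wnt ligand or GSK3 inhibitor was named for either line. The study named no genetic change either, but it cites earlier work for Oli-neu without describing how that line was made. Each cell type is 1 line, so the comparison is between R08 and Oli-neu, and the libraries of each line carry 1 library label that differs between the lines, so that a difference of preparation and a difference of cell type cannot be told apart.

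CAGE reads a short tag from the 5′ end of each capped RNA. A gene's tags therefore do not scale with its length, and CPM values (tags as a share of the library total, scaled to 1000000 tags) were compared between genes as well as between lines. The libraries held 16657021 to 37888141 tags in mESCs and 21925299 to 40928704 in mOPCs, and the level is less precise in the smaller libraries. The position with most tags held 0.508% to 0.667% of a library in mESCs and 5.38% to 5.92% in mOPCs. Tags within 500 bp of an annotated 5′ end made up 87.6% to 88.1% of the mESC libraries and 80.3% to 80.8% of the mOPC libraries. In RNA from many cells, fewer cells of a type and less RNA per cell cannot be told apart. All 10 of the mESC markers checked were lower in the mOPC libraries, 6 of them at 0 tags there. Of 8 mOPC markers, 7 were higher in mOPCs and Nkx2-2 had 0 tags there. Pdgfra differed least of the 7, with 8.33 CPM in mOPCs against 5.51 CPM in mESCs. Markers of differentiated oligodendrocytes summed to 398 to 424 CPM in the mOPC libraries against 68.8 to 71.9 CPM in the mESC libraries, with 6 of 7 higher in mOPCs. Primitive endoderm markers summed to 64.8 to 80.3 CPM in mESCs and 56.4 to 62.3 CPM in mOPCs (Gata4 and Gata6 at 10.9 and 10.2 CPM in mESCs), neuron markers to 10.3 to 11.0 and 81.3 to 102 CPM, astrocyte markers to 46.7 to 50.7 and 82.7 to 94.7 CPM, and fibroblast or feeder markers to 17.9 to 23.4 and 83.8 to 87.2 CPM. One gene carried most of each sum in mOPCs: Dab2 with 58.7 CPM (47.5 CPM in mESCs), Syt1 with 88.3, Slc1a3 with 89.5 and Postn with 74.7 CPM. Gata6, Sox17, Rbfox3, Snap25, Slc17a6, Aqp4 and Col1a2 had 0 tags in mOPCs, Gata4 had 2, and Aldh1l1, Tubb3 and Thy1 were lower there. Col1a1 (2.20 CPM in mESCs and 11.1 CPM in mOPCs) and Gfap (0.516 and 0.992 CPM) were higher in mOPCs. Primitive streak markers stayed under 3 CPM in all libraries. Whether such cells contributed to any value below was not tested.

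All 10 genes had enough tags to be tested. By edgeR's quasi-likelihood test, 5 were higher in mOPCs (Lgr5, Axin2, Tcf7l2, Apcdd1 and Lef1), 4 were lower (Tcf7, Lgr4, Apc and Ctnnb1), and Tcf7l1 did not pass the adjusted p threshold of 0.05. The lines differed at most genes: 91.2% of the 18490 genes tested passed, 42.7% higher and 48.5% lower in mOPCs, so that 9 of 10 is close to the background. Differences of at least 2-fold that passed were found for 4 of the 10 genes, against 67.1% of all genes. The median absolute log2 fold change of the 10 genes was 0.83, and that of all genes tested was 1.71. The median log2 fold change (mOPC over mESC) was 0.26 for the 10 genes and -0.16 for all genes tested.

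**Figure D1:**
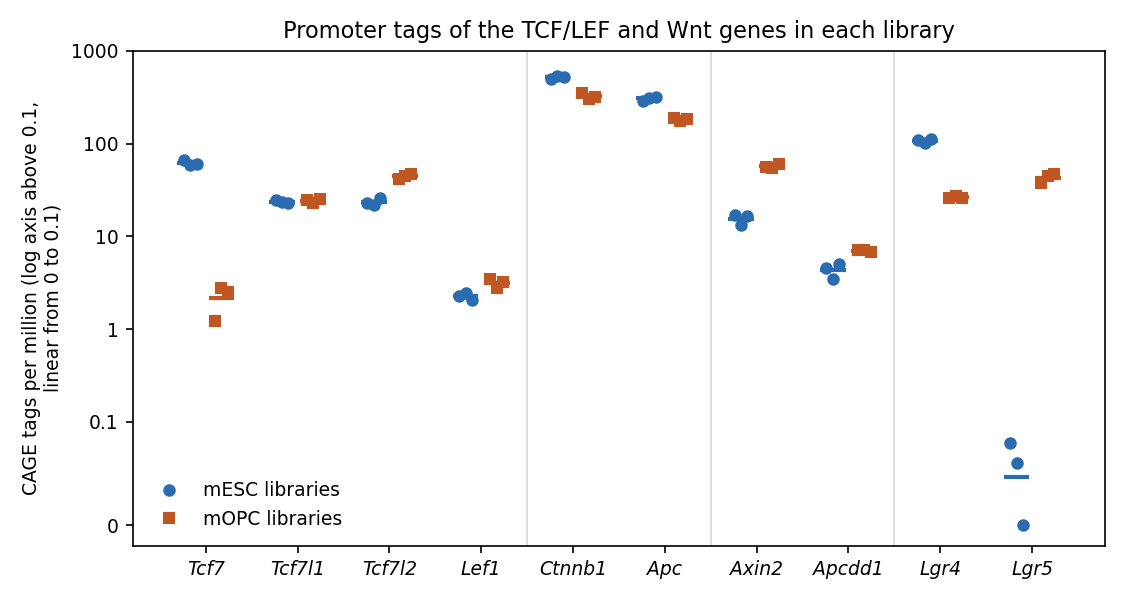
Promoter tags (CPM) of the 10 genes, with 1 point per library and a short line at the mean of each cell type (logarithmic axis above 0.1, linear from 0 to 0.1). Tcf7 and Lgr4 stand higher in the mESC libraries, Lgr5, Axin2 and Tcf7l2 higher in the mOPC libraries, and the Tcf7l1 points of the cell types overlap.

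Among the TCF/LEF genes, Tcf7 was far lower in mOPCs and Tcf7l2 was higher. Tcf7, which encodes TCF1, had 65.9, 58.8 and 60.8 CPM in the mESC libraries and 1.23, 2.77 and 2.54 CPM in the mOPC libraries. The groups were far apart, and the level in mESCs was 27.2 times that in mOPCs (log2 fold change -4.77 ± 0.15 SE, adjusted p = 3.74e-18). With windows of 100 bp, which leave out its main starts, the ratio was 80.5. Tcf7l2, which encodes TCF4, had 23.1, 21.9 and 25.6 CPM in mESCs and 41.5, 44.7 and 46.9 CPM in mOPCs. Every mOPC library lay above every mESC library, by 1.89-fold on average (log2 fold change 0.92 ± 0.09 SE, adjusted p = 8.25e-12).

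Tcf7l1, which encodes TCF3, did not differ beyond the spread of the libraries. It had 24.6, 23.4 and 22.8 CPM in mESCs and 24.8, 22.9 and 25.2 CPM in mOPCs (log2 fold change 0.04 ± 0.09 SE, adjusted p = 0.688). Lef1 was low in both lines, with 2.30, 2.46 and 2.06 CPM in mESCs and 3.51, 2.81 and 3.20 CPM in mOPCs. These libraries did not overlap, but the difference was small (log2 fold change 0.47 ± 0.18 SE, adjusted p = 0.0138) and rested on 38 to 131 tags per library. With DESeq2 the Lef1 difference did not pass (adjusted p = 0.0758).

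The order of the TCF/LEF genes differed between the lines. In mESCs Tcf7 led at 61.8 ± 3.66 CPM (SD, n = 3), Tcf7l1 and Tcf7l2 followed at 23.6 ± 0.925 and 23.5 ± 1.91 CPM without a gap beyond their spread, and Lef1 came last at 2.27 ± 0.201 CPM. Over the whole gene body, Tcf7l1 had more tags than Tcf7l2 in every mESC library (1281, 545 and 623 against 1029, 428 and 554). In mOPCs Tcf7l2 led at 44.3 ± 2.69 CPM, ahead of Tcf7l1 at 24.3 ± 1.26 CPM, with Lef1 at 3.17 ± 0.352 and Tcf7 at 2.18 ± 0.832 CPM at the low end, where the lowest Lef1 library (2.81 CPM) lay just above the highest Tcf7 library (2.77 CPM). Summed over the 4 genes, the lines held 111 ± 4.74 CPM in mESCs and 74.0 ± 3.49 CPM in mOPCs, a ratio of 1.50 (exact permutation test of both directions, p = 0.1; no smaller p can be had from 3 libraries against 3).

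As shares of these summed tags, Tcf7 held 55.6% ± 1.13 (SD, n = 3) in mESCs and 2.93% ± 1.07 in mOPCs. Tcf7l2 held 21.2% ± 1.62 in mESCs and 59.9% ± 1.35 in mOPCs. Tcf7l1 had 21.2% ± 0.731 and 32.8% ± 1.85, a higher share in mOPCs although its level did not pass the test, and Lef1 2.05% ± 0.237 and 4.30% ± 0.575. None of the 4 shares overlapped between the lines, and each difference had p = 0.1 in the same exact permutation test, also after adjustment over the 4 tests.

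**Figure D2:**
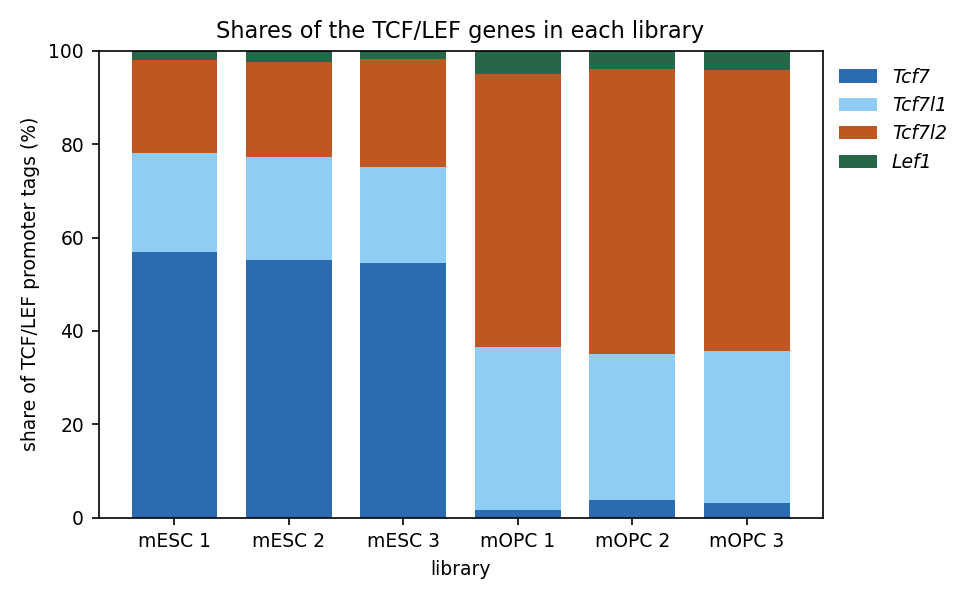
Each bar is 1 library, and its parts are the shares of Tcf7, Tcf7l1, Tcf7l2 and Lef1 in their summed promoter tags (%). Tcf7 takes 54.7% to 56.8% in the mESC libraries and 1.73% to 3.80% in the mOPC libraries, where Tcf7l2 takes 58.4% to 61.1%.

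The shares depended on how far from an annotated 5′ end tags were counted, since the starts of Tcf7 and Lef1 lay away from those annotated in GENCODE. Tcf7 (minus strand of chromosome 11, chr11:52252371-52283014, GENCODE vM21 on mm10) is annotated with 2 starts. The position with most tags lay 328 to 354 bp upstream of the first of them in the mESC libraries and 363 to 375 bp upstream in the mOPC libraries. Tags upstream of the first annotated start made up 96.0% ± 1.04 of the Tcf7 tags in mESCs and 99.7% ± 0.555 in mOPCs. Within 100 bp of the annotated starts, only 3.04% to 3.88% of the Tcf7 tags were left in the mESC libraries. In such narrow windows the shares were 4.94% and 0.0234% for Tcf7, 46.4% and 63.9% for Tcf7l2, 48.1% and 36.0% for Tcf7l1 and 0.601% and 0.0769% for Lef1 (mESC and mOPC means), so that the differences of Tcf7l1 and Lef1 turned around. Tags within 100 bp of the second annotated start stood at 1.80 ± 0.244 CPM in mESCs, and 1 tag was found there in the 3 mOPC libraries together.

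An ATG with an open frame to the end of the annotated first exon lies 165 bp before the annotated start, at position 52283179, and this frame runs for 252 bases without a stop. Of the Tcf7 tags, 94.8% ± 0.781 in mESCs and 98.9% ± 0.976 in mOPCs started upstream of it. The annotated coding start lies further downstream, at position 52282217. As background, TCF/LEF proteins bind β-catenin through their N-terminal end, and forms of TCF1 that start downstream lack this part. Whether RNAs from these starts are translated from this ATG was not measured. The 30 bases around it (chr11:52283165-52283194, minus strand, RefSeq sequence of GRCm38.p6) are shown with the ATG in capitals.
Tcf7: cgggcgcagcgcaccATGccgcagctggac

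Lef1 (chr3:131110471-131224356, plus strand) also started upstream of its GENCODE 5′ end, with its main start 146 or 170 bp before it in every library. RefSeq places Lef1 starts at positions 131110297 and 131110323, next to these main starts at 131110301 and 131110325. A second Lef1 window (chr3:131112297-131113306) had 12, 2 and 7 tags in the mESC libraries and 0 in each mOPC library, too few to be tested. With that window aside, the difference at the first window was larger than for the gene (log2 fold change 0.67 ± 0.19 SE, adjusted p = 0.00113).

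Tcf7l1 and Tcf7l2 started at the same base in all 6 libraries, but the spread of the other starts differed. The main start of Tcf7l1 (chr6:72626378-72789254, minus strand) lay 24 bp inside the annotated 5′ end and took 30.6% to 34.0% of the tags in mESCs and 24.8% to 27.0% in mOPCs. The span from the 10th to the 90th percentile of its tags was 194 to 204 bp in mESCs and 31 to 33 bp in mOPCs. A cluster of starts that peaks 199 bp inside the annotated 5′ end had 2.17 ± 0.224 CPM in mESCs and 0.639 ± 0.119 CPM in mOPCs. The window of 100 bp on each side of a further annotated start (chr6:72788852-72789052), which overlaps this cluster in part but not its peak, held 8.03% ± 0.437 of the Tcf7l1 tags in mESCs and 2.32% ± 0.142 in mOPCs (edgeR's test of promoter use, adjusted p = 3.92e-09). The level of Tcf7l1 thus did not pass the test, and the share of this window did.

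The main start of Tcf7l2 (chr19:55741820-55933654, plus strand) lay 16 bp after the annotated 5′ end. Its tags spanned 832 to 1023 bp in mESCs and 130 to 135 bp in mOPCs. A short cluster of starts at the far end of this window had 44, 16 and 22 tags in mESCs and 3, 6 and 6 in mOPCs. An internal promoter window that starts shorter annotated transcripts (chr19:55894034-55896162) held 1.85% ± 0.136 of the Tcf7l2 tags in mESCs and 0.385% ± 0.210 in mOPCs, from 17, 7 and 8 tags against 2, 8 and 6 (promoter use, adjusted p = 1.02e-05). Without mESC replicate 1, mOPC replicate 2 or mOPC replicate 3 this window no longer passed the filter on low counts and was not tested.

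Bases of the promoter windows that carried most of the tags of these 3 genes are shown. They come from RefSeq (GRCm38.p6) and end just before the GENCODE 5′ end for Tcf7l1 and just before the RefSeq starts at positions 55741810 and 131110297 for Tcf7l2 and Lef1, and the regions are chr6:72789255-72789295 (minus strand), chr19:55741710-55741809 and chr3:131110197-131110296. Between 66% and 82.9% of these bases are G or C.
Tcf7l1: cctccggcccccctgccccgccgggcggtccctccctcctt
Tcf7l2: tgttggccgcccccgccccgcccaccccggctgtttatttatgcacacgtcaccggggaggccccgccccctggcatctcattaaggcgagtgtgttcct
Lef1: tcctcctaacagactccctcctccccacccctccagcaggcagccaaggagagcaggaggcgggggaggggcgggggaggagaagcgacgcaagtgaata

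Ctnnb1 (chr9:120929216-120960507, plus strand) had the most tags of the 10 genes in both lines, with 496, 539 and 522 CPM in mESCs and 351, 302 and 314 CPM in mOPCs. The level in mESCs was 1.61 times that in mOPCs (log2 fold change -0.69 ± 0.08 SE, adjusted p = 1.37e-09), and the libraries did not overlap. Its promoter was the sharpest of the list. A single base, position 120933487, took 84.9% to 86.9% of the tags of the main window in mESCs and 86.6% to 90.6% in mOPCs, and the span from the 10th to the 90th percentile was 1 or 2 bp. The letters TATAAA begin 29 bp before this base. They occur in 8.32% of the 32851 mouse promoter sequences of RefSeq (250 bases before to 50 after each start, gene strand), and among the 13 sequences of the 7 genes found there, in 1 of the Ctnnb1 sequences. The 30 bases that end at the main start (chr9:120933458-120933487) are shown with these letters in capitals.
Ctnnb1: TATAAAtcgctccttgtgcggcgccatctt

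The main window held 98.8% ± 0.216 of the Ctnnb1 tags in mESCs and 98.5% ± 0.192 in mOPCs. The small windows inside the gene each held under 1% of the tags. The share of one of them (chr9:120949721-120951589) was higher in mOPCs, at 0.668% ± 0.143 against 0.365% ± 0.0515 (adjusted p = 0.000213), although its level did not pass (1.89 and 2.14 CPM, adjusted p = 0.386). The share of the last window (chr9:120958716-120959716) was lower, at 0.307% ± 0.117 against 0.456% ± 0.108 (adjusted p = 0.0141), a call that was lost without mESC replicate 1 (adjusted p = 0.230), mOPC replicate 1 (0.0560) or mOPC replicate 3 (0.232).

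Apc encodes the large scaffold that brings β-catenin to its kinases. The gene (chr18:34220924-34322552, plus strand) had 288, 312 and 319 CPM in mESCs and 188, 173 and 184 CPM in mOPCs, 1.68 times as much in mESCs (log2 fold change -0.75 ± 0.08 SE, adjusted p = 5.39e-11). This sum joins a pair of promoters that moved in opposite directions. The first promoter window had 275, 299 and 307 CPM in mESCs and 89.5, 79.6 and 90.4 CPM in mOPCs (log2 fold change -1.76 ± 0.08 SE, adjusted p = 3.49e-24). The second, whose main start lies 26.8 kb downstream, had 12.1, 12.6 and 11.2 CPM in mESCs and 97.4, 93.2 and 93.4 CPM in mOPCs, 7.90 times as much in mOPCs (log2 fold change 2.98 ± 0.09 SE, adjusted p = 1.75e-31).

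In mESCs the first promoter thus gave 96.0% ± 0.359 of the Apc tags and the second 3.92% ± 0.365. In mOPCs the promoters were used about equally, with 47.5% ± 1.53 from the first and 52.1% ± 1.60 from the second. The test of promoter use within the gene gave an adjusted p of 6.68e-40 for the second promoter. Per tag of the first promoter, the second had 0.0408 ± 0.00395 tags in mESCs and 1.10 ± 0.0694 in mOPCs, a 26.9-fold difference. Transcripts annotated from each of these promoters (Apc-202 and Apc-203 from the first, Apc-201 from the second) share the coding start at position 34261023, and the first promoter also starts Apc-209, with an annotated coding start of its own at position 34221112. Within the first promoter, the main start lay 3 bp before the annotated 5′ end in all mESC libraries and 25 bp before it in all mOPC libraries. At the second promoter the main start was the same base in all 6 libraries, with 11.9% to 15.5% of its tags in mESCs and 27.6% to 28.9% in mOPCs.

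**Figure D3:**
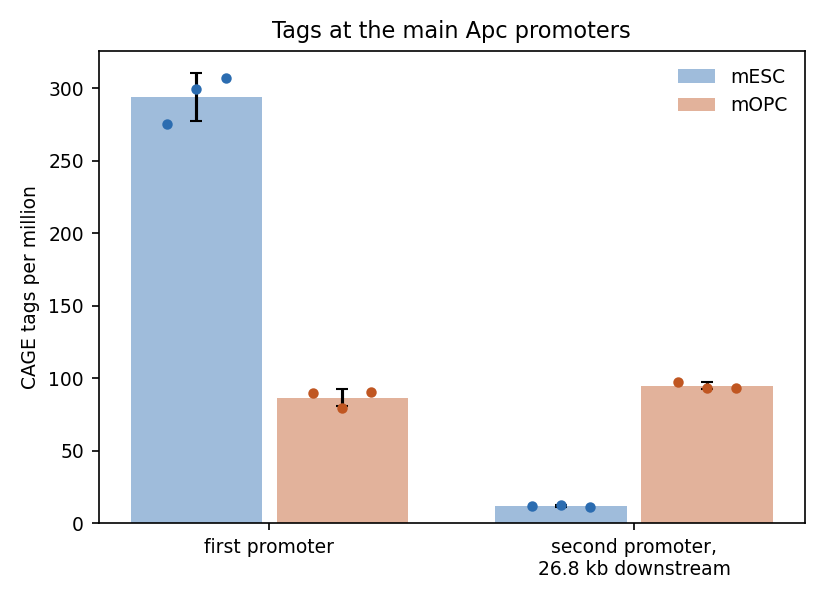
Tags (CPM) at the main Apc promoters, with bars at the mean of 3 libraries, error bars of 1 SD and a point for each library. The first promoter stands at 294 CPM in mESCs and 86.5 CPM in mOPCs, and the second at 12.0 and 94.7 CPM.

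Axin2, a scaffold of the destruction complex and itself a Wnt target (chr11:108920349-108950783, plus strand), had 16.9, 13.1 and 16.4 CPM in mESCs and 56.6, 54.4 and 59.8 CPM in mOPCs. All mOPC libraries lay well above the mESC libraries, by 3.65-fold (log2 fold change 1.87 ± 0.10 SE, adjusted p = 7.69e-20). For comparison, its paralog Axin1 had 49.9 ± 4.10 CPM in mESCs and 51.8 ± 2.01 CPM in mOPCs and did not pass (adjusted p = 0.564). Of the summed Axin tags, Axin2 held 23.6% ± 0.987 in mESCs and 52.4% ± 1.64 in mOPCs.

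The rise of Axin2 was not even over its 4 neighbouring annotated starts, which lie 451, 987 and 1299 bp after the first. Tags nearest to the first start had 9.74 ± 1.74 CPM in mESCs and 18.3 ± 1.59 CPM in mOPCs, and those nearest to the second 5.14 ± 0.396 and 20.2 ± 1.28 CPM. Tags nearest to the third start went from 0.129 ± 0.0298 to 8.44 ± 0.592 CPM and those nearest to the fourth from 0.258 ± 0.0163 to 8.80 ± 0.267 CPM. Those nearest to the third were spread out in mOPCs, with the fullest 10 bp beginning 1070 bp after the first start (2.52 CPM). In mESCs the tags nearest to these last starts were thus close to 0. In mOPCs they held means of 15.1% ± 0.763 and 15.8% ± 0.270 of the tags of the window. In windows of 100 bp around each start, the share of the first fell from 60.6% ± 4.42 to 24.7% ± 1.11 of the Axin2 tags (adjusted p = 5.92e-15), the second did not pass (36.1% ± 3.95 and 43.9% ± 2.22, adjusted p = 0.0570), and the shares of the third and of the fourth rose to 13.5% ± 1.35 (adjusted p = 1.16e-18) and 17.4% ± 0.278 (adjusted p = 1.64e-17). The span of the tags was 481 to 485 bp in mESCs and 1300 bp in every mOPC library, while the base with most tags, 483 bp after the first annotated start, was the same in all 6.

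**Figure D4:**
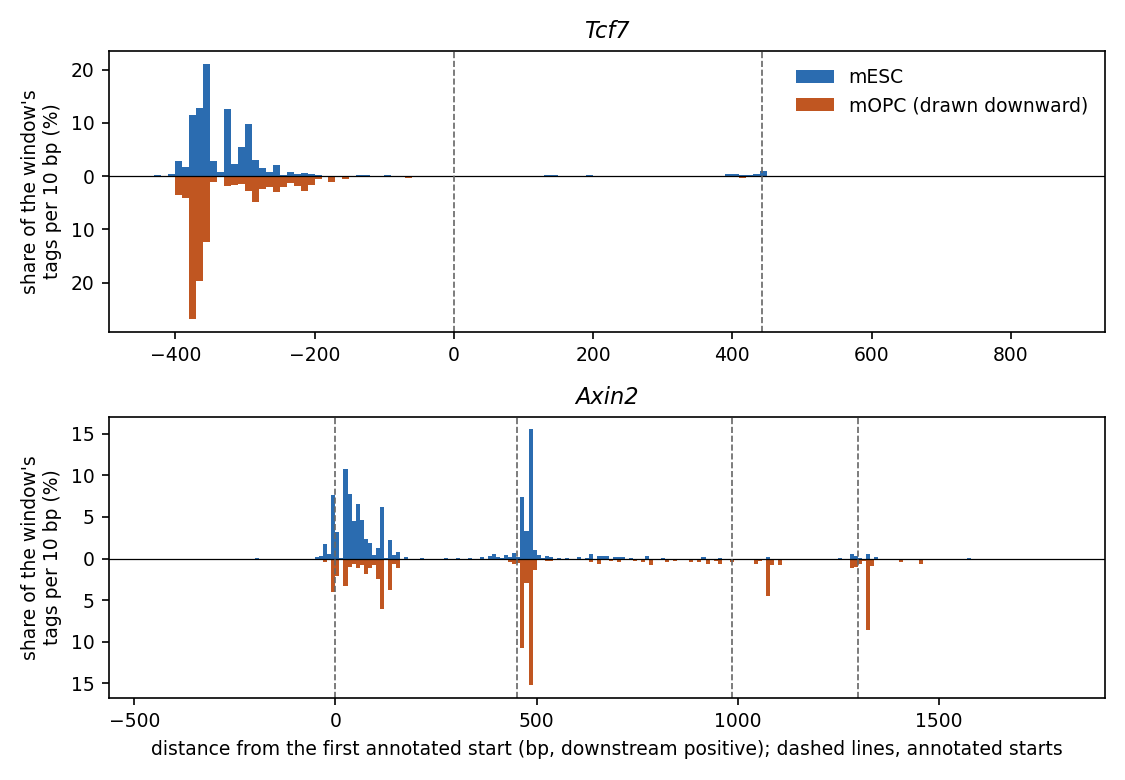
Share of the tags of the Tcf7 and Axin2 windows in each 10 bp (mean of 3 libraries, mESC upward and mOPC downward) by distance from the first annotated start, with dashed lines at annotated starts. The Tcf7 starts lie upstream of the first annotated start in both lines, and the Axin2 starts near the last annotated starts appear in mOPCs.

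The bases before the first Axin2 start are shown since Axin2 is the classical target gene of the list. Its base with most tags lies 483 bp after that start, outside this sequence. In this sequence (chr11:108920099-108920348, RefSeq, GRCm38.p6), 69.2% of the bases are G or C. The TCF/LEF motif was searched as CTTTGAT or CTTTGAA on both strands. It is found in 8.65% of the 32851 RefSeq promoter sequences and in 0 of the 13 of the listed genes, which says only that these letters are not in these windows. The 13 sequences belong to 7 genes, with none for Apc, Apcdd1 or Lgr5.
Axin2: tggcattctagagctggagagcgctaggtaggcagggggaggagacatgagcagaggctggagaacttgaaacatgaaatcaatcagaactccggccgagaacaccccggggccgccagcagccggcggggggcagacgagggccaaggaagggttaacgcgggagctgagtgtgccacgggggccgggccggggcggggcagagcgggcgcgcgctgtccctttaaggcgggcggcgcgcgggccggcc

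Apcdd1, which encodes a membrane-bound Wnt inhibitor (chr18:62922231-62961179, plus strand), was a low gene with 4.51, 3.48 and 5.05 CPM in mESCs and 7.12, 7.07 and 6.77 CPM in mOPCs. The groups did not overlap, and the difference was 1.59-fold (log2 fold change 0.67 ± 0.14 SE, adjusted p = 6.25e-05). Its starts spanned 54 to 66 bp in mESCs and 179 to 188 bp in mOPCs. A cluster that peaks 221 bp after the annotated 5′ end went from 0.202 to 1.10 CPM, and the main cluster from 3.93 to 4.95 CPM.

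The R-spondin receptors went opposite ways. Lgr4 (chr2:109917647-110014257, plus strand) had 110, 101 and 111 CPM in mESCs and 26.0, 27.1 and 25.7 CPM in mOPCs, 4.09 times as much in mESCs (log2 fold change -2.03 ± 0.08 SE, adjusted p = 8.50e-23). Lgr5 (chr10:115450311-115587780, minus strand), known as a Wnt target gene and stem cell marker in the intestine, had 3, 1 and 0 tags in the mESC libraries and 37.6, 44.5 and 47.0 CPM in the mOPC libraries. The ratio of the pooled tags (4030 against 4) was 802, with a 95% exact binomial interval of 313 to 2944 that covers counting error only. By edgeR's fit the log2 fold change was 9.51 (adjusted p = 1.49e-29). Its SE of 0.24 is too small to cover the counting error of 4 tags. The fitted log2 fold change was 10.33 without mESC replicate 1, which held 3 of the 4 tags, and 8.31 with all tags of the gene body. Lgr5 therefore made up 62.0% ± 2.82 of the Lgr4 and Lgr5 tags in mOPCs and 0.0437% ± 0.0384 in mESCs. The mean levels in mOPCs were 26.3 CPM of Lgr4 and 43.0 CPM of Lgr5, against 107 CPM of Lgr4 in mESCs. Their paralog Lgr6, named here after its values were seen, was at 2.99 ± 0.106 CPM in mESCs and 0.0580 ± 0.0412 CPM in mOPCs (adjusted p = 1.84e-16).

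Both receptors started at one main place. Lgr4 had its main start 1 bp before the annotated 5′ end in all 6 libraries, with 44.7% to 48.5% of the tags in mESCs and 37.0% to 41.5% in mOPCs. Lgr5 started 20 to 23 bp inside its annotated 5′ end in the mOPC libraries, with a smaller group of starts 273 bp inside it at 2.57 CPM.

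Taken by window, the 10 genes have 32 promoter windows, of which 16 passed the filter on low counts. By edgeR's test 7 of these were higher and 6 lower in mOPCs and 3 were not called, against 89.9% of all 23609 windows called in either direction. Use of the windows within a gene could be tested for 10 windows of 4 genes, and 5 windows of 3 genes (Apc, Ctnnb1 and Tcf7l2) had a changed share, where 48.5% of all 8555 windows tested did. With windows of 100 bp, which part neighbouring starts, 9 of 17 windows of 6 genes had a changed share against 53.1% of all windows. Windows of Axin2 and Tcf7l1 were among the 9. The 17 also include windows of Lgr5 with 3, 1 and 0 tags and with 0 tags in the mESC libraries, too few to show a change of share.

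A part of the tags of these genes lay away from all annotated 5′ ends. It was larger in mOPCs for 7 of the 9 genes with at least 20 tags in every library, without overlap between the lines: Tcf7l2 had 14.8% ± 0.0974 in mESCs and 31.8% ± 0.621 in mOPCs, Axin2 4.09% ± 1.32 and 12.5% ± 0.444, and Tcf7 3.61% to 4.21% and 11.1% to 15.8% over the libraries. Tcf7l1 had the largest such share in mESCs, at 29.5% ± 2.77 against 36.3% ± 1.90. Lef1 and Apcdd1 overlapped between the lines. Each of the 7 differences had p = 0.1 by exact permutation, which is the lower limit here, and 0.129 after adjustment over the 9 genes. The share of all tags away from annotated 5′ ends was higher in the mOPC libraries as well. Tags within 500 bp of such an end made up 80.3% to 80.8% there, against 87.6% to 88.1% in mESCs. How many of all genes shift this way was not counted, so that 7 of 9 cannot be set against a background. The part of the overall shift in these values was not tested.

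Around these genes, a list of 105 other genes of the pathway was followed, of which 84 could be tested. In mOPCs 42 were higher and 34 lower, and 8 did not pass, so that 90.5% of those tested differed against 91.2% of all genes. Their median log2 fold change was 0.18, beside -0.16 for all genes. Of 19 Wnt ligand genes only 7 had enough tags, and Wnt9a was the one with over 5 CPM, at 9.73 ± 1.48 CPM in mESCs and 6.48 ± 0.811 CPM in mOPCs (adjusted p = 8.54e-05). Both genes for ligand secretion were higher in mOPCs, Wls, which carries Wnt proteins to the cell surface, from 4.95 ± 0.665 to 76.4 ± 2.93 CPM (adjusted p = 1.62e-28) and Porcn, which acylates them, from 8.34 ± 0.813 to 13.8 ± 0.630 CPM (adjusted p = 5.00e-07).

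Of 9 secreted and surface inhibitors tested, 7 were lower and 2 higher in mOPCs, where 48.5% of all genes tested were lower and 42.7% higher. Those higher were Wif1, from 0.243 to 1.50 CPM, and Kremen1, from 10.9 to 33.0 CPM, both named after their values were seen. Sfrp1, which binds Wnt proteins outside the cell, stood at 112 ± 0.846 CPM in mESCs and 0 tags in mOPCs, at least 3426-fold lower when 3 tags over the pooled mOPC libraries are taken as the limit. Dkk1, which blocks the Lrp5 and Lrp6 co-receptors, had 5.31 ± 0.748 CPM in mESCs and 0 tags in mOPCs, at least 165-fold lower. Sfrp2 had 420 tags in mESCs and 2 in mOPCs, a ratio of 264 with a 95% exact binomial interval of 72.6 to 2186. R-spondins, the ligands of the Lgr receptors, were lower in 2 of 3 tested, with Rspo1 at 6.16 ± 0.593 and 0.910 ± 0.202 CPM (adjusted p = 8.47e-16).

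All 15 receptor and co-receptor genes were tested, with 7 higher and 6 lower in mOPCs. Among the Frizzled receptors, Fzd5 fell from 145 ± 4.66 to 9.42 ± 0.866 CPM (adjusted p = 4.74e-30) and Fzd6 from 7.30 ± 0.517 CPM to 0 tags, at least 227-fold lower. Fzd1 rose from 0.208 ± 0.163 to 9.89 ± 1.08 CPM (adjusted p = 9.45e-21). The genes of the cytoplasmic relay and the destruction complex were higher in 11 of 18 and lower in 6, beside the 42.7% and 48.5% of all genes. Those that fell include Csnk1a1 (138 to 35.1 CPM), Tnks (80.1 to 21.1 CPM) and Tnks2 (463 to 186 CPM), named after their values were seen. Apc2, the paralog of Apc, rose from 2.19 ± 0.0988 to 97.3 ± 10.6 CPM (adjusted p = 6.05e-31) and so held 34.8% ± 1.57 of the summed Apc and Apc2 tags in mOPCs against 0.712% ± 0.0688 in mESCs. Dvl1, which relays the signal from the receptor, rose to 76.3 ± 3.54 from 13.2 ± 1.36 CPM (adjusted p = 3.45e-24), and the kinase gene Csnk1d to 99.8 ± 3.81 from 24.8 ± 1.20 CPM (adjusted p = 2.01e-22).

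Of 18 genes for nuclear co-factors, 12 were higher and 4 lower in mOPCs, beside the 42.7% and 48.5% of all genes. These include the co-repressors of the TCF/LEF proteins, and their paralogs also moved apart. Tle2 rose from 2.30 ± 0.253 to 148 ± 7.49 CPM (adjusted p = 5.79e-33), and Tle1 from 20.7 to 92.3 CPM. Tle4 fell from 329 to 91.5 CPM and Tle3 from 31.5 to 19.2 CPM. Tle1, Tle3 and Tle4 are named after their values were seen. Ctbp2 fell from 768 ± 58.1 to 31.5 ± 0.519 CPM (adjusted p = 8.19e-32). Ctbp1, named after its values were seen, held 6.21% ± 0.492 of the Ctbp1 and Ctbp2 tags in mESCs and 85.6% ± 0.676 in mOPCs. Pygo1, a co-activator that binds through Bcl9 proteins, rose from 5.16 ± 0.490 to 34.3 ± 2.65 CPM (adjusted p = 1.51e-22).

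Of the 12 genes known as Wnt targets in one tissue or another, 8 were tested. In mOPCs 5 were higher and 3 lower, beside the 42.7% and 48.5% of all genes. Sall4 and Nr5a2, both also active in pluripotent cells, had 126 ± 13.7 and 86.3 ± 7.67 CPM in mESCs and 0 tags in mOPCs, at least 3732-fold and 2576-fold lower. Cd44, which encodes a hyaluronan receptor, rose from 0.266 ± 0.145 to 25.0 ± 5.91 CPM (adjusted p = 2.61e-15). The 4 genes known to be repressed by Tcf7l1 in mESCs were all lower in mOPCs, while the difference of Tcf7l1 itself did not pass. Esrrb had 252 ± 31.3 and 0.356 ± 0.0893 CPM (adjusted p = 1.87e-34), Klf2 528 ± 58.8 and 4.60 ± 1.10 CPM (adjusted p = 7.76e-19), and Tfcp2l1 35509 and 3 pooled tags, a ratio of 14873 (95% exact binomial interval 5089 to 72123). Nanog had 123 ± 1.97 CPM in mESCs and 0 tags in mOPCs, at least 3748-fold lower. Nanog and Esrrb also stand in the list of mESC markers, all of which were lower in mOPCs, and the study names several of these and of the target genes as markers of its lines, so that their direction is no independent evidence.

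**Figure D5:**
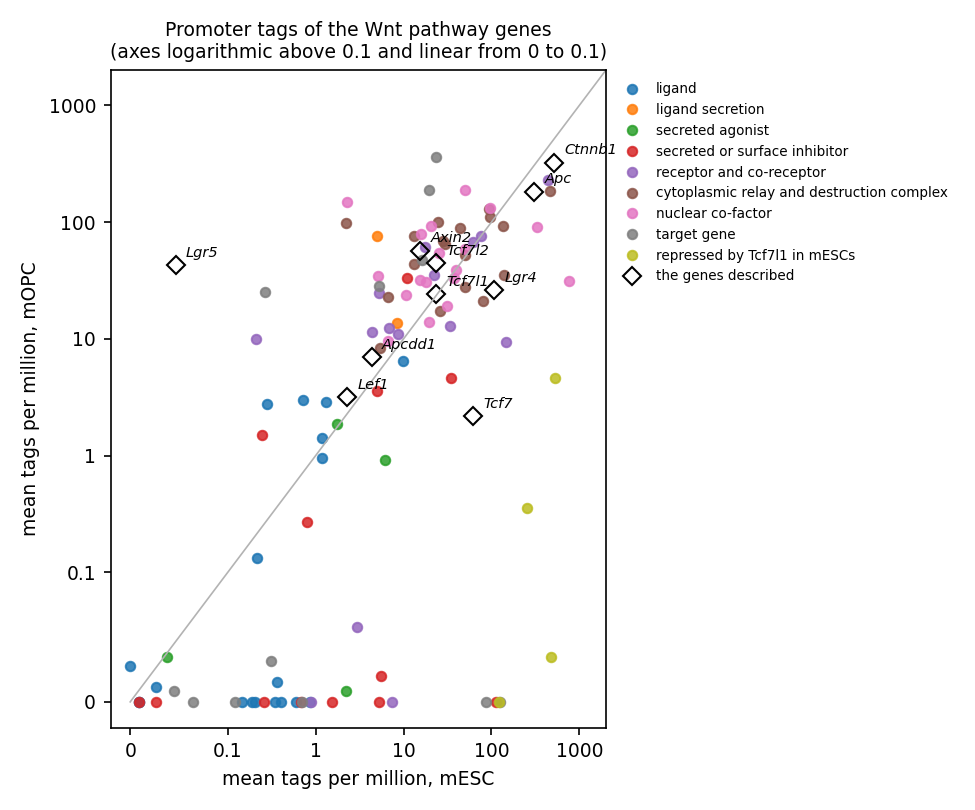
Mean CPM in mESCs (horizontal axis) and mOPCs (vertical axis) for the 105 pathway genes by role and the 10 listed genes (diamonds), with logarithmic axes above 0.1 and the diagonal marking equal levels. Of the inhibitor genes tested, 7 of 9 lie below the diagonal, among them Sfrp1 at 112 and 0 CPM, and Lgr5 lies at the upper left.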

How the data were processed

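CAGE was measured on nuclear RNA in 3 mESC and 3 mOPC libraries. The deposited values are raw counts of tags by position and strand of their 5′ end, made by the authors from unique alignments to mm10; the study's methods name bowtie as the aligner, and the submitters' processing notes CASAVA 1.8 and BWA 0.5.9. Tags were summed within 500 bp of each GENCODE vM21 5′ end on the gene's strand, overlapping windows being merged, and divided by the library total. A tag in windows of several genes counted for each.

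Counts were compared with edgeR 4.0.16 in R 4.3.3 (robust quasi-likelihood fit, library totals as size, filterByExpr, Benjamini-Hochberg), and promoter use with its test of windows against their gene. Each SE is the size of the fitted log2 fold change divided by the square root of the test's F statistic. The labels number the libraries but name no separate cultures, so p-values measure the spread between these libraries, which may be technical; all pairs differed beyond counting noise. On simulated counts with 200 planted genes, 96% were recovered among 17988 genes tested, and 2 of 194 calls were wrong. For promoter use 93% were recovered among 3103 genes, and 14 of 200 calls were wrong. The planted differences were 4-fold for genes and larger for windows, in a small part of the genes, with the same spread for all. Many differences described above are smaller, and most genes differed, so these rates do not apply to those calls. How recovery varies with the size of a difference was not tested. The genes, lists and tests were chosen with earlier results of these data known. Windows with at least 1 CPM are described. Of the pathway list, up to 3 called genes per role with the largest fold are named, among those of at least 5 CPM and without overlap between the lines, plus all 4 genes repressed by Tcf7l1. Bounds use 3 tags. Tags carry no molecular identifiers, so intervals and bounds cover counting error only. Alternatives were another scaling, tool, filter or window, thinning, a replicate block and leaving out each library.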

Additional observations from a re-analysis of the deposited data

Results flagged for a closer look

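Clusters of starts away from every annotated 5′ end were met in 3 of the 10 genes at 1 CPM or more, above what 3 tags per library would give, with no control libraries to set against them. In Tcf7l1 an intronic cluster of 52 bp (chr6:72690741-72690792, 98466 bp from the 5′ end) had 1.55 ± 0.214 CPM (SD, n = 3) in mESCs and 0 tags in mOPCs. In Axin2 an intronic cluster of 115 bp (chr11:108922245-108922359) had 2.34 ± 0.204 CPM in mOPCs and 0.190 ± 0.100 CPM in mESCs. In Apc, 3 clusters inside exons near the 3′ end were higher in mESCs. The first had 1.15 ± 0.287 CPM there and 0.375 ± 0.176 CPM in mOPCs, the second 1.72 ± 0.552 and 1.09 ± 0.0540 CPM, and the third 2.14 ± 0.494 and 0.486 ± 0.0836 CPM. Groups of 3 libraries are too small to look for single libraries that stand apart.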

How the results depend on the processing

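At the level of genes and of promoter windows, the counts of calls among the 10 genes and in the pathway list stayed within 1.5 times their value under every alternative run. Scalings by TMM or DESeq2 moved the median of all genes from -0.16 to -0.19 and -0.23. The windows with a changed share within their gene rose from 5 to 8 without the filter on low counts and to 9 with windows of 100 bp. The TCF/LEF shares rest on the window: with 100 bp, where the main starts of Tcf7 and Lef1 fall outside, the difference (mOPC minus mESC, percentage points) went from -52.6 to -4.92 for Tcf7, from 11.6 to -12.1 for Tcf7l1, from 38.8 to 17.5 for Tcf7l2 and from 2.25 to -0.524 for Lef1. With all tags of the gene bodies it was -47.8 for Tcf7, 8.70 for Tcf7l1 and 1.37 for Lef1. Leaving out each library in turn gave no such change. Of single genes, Tcf7l1 passed as higher in mOPCs with gene-body tags (log2 fold change 0.19, adjusted p = 0.0297), and the share of a Ctnnb1 window (chr9:120954625-120957367) passed without mESC replicate 1 (adjusted p = 0.0292) or mOPC replicate 3 (0.0238). The replicate numbers did not pair the libraries (correlations of same-numbered deviations 0.018, 0.099 and 0.021), and with the replicate block 5 of the 10 genes were higher and 4 lower in mOPCs. The smallest library held 16657021 tags, and values that rest on fewer than 20 tags there, such as those of Lgr5 in mESCs, carry wide counting error.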
